A study of Mus musculus with 12 samples.

Results

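The 6 genes described here are Cdkn1b, Cdkn1c, Cdkn2b, Cdkn2c, Cdkn2d and Cdkn3. They were taken by symbol from 24421 genes in the count tables. All 6 were present, and 5 entered the tests. Cyclin-dependent kinases (CDKs) drive cells from G1 into S phase and on to mitosis once they bind a cyclin. Members of the CIP/KIP family, here p27 (Cdkn1b) and p57 (Cdkn1c), bind cyclin and kinase together and block the complexes of cyclins E and A with CDK2. The INK4 proteins p15 (Cdkn2b), p18 (Cdkn2c) and p19 (Cdkn2d) bind CDK4 and CDK6 and keep them from the D cyclins. Cdkn3 encodes KAP, a phosphatase that takes the activating phosphate off CDK2, and its transcript is known as one of G2 and mitosis. In lymphocytes p27 holds resting cells out of the cycle, and p18 limits the division of B cells and is needed for plasma cell formation in mice.

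RNA came from B220+ spleen cells of mice aged 4 to 5 weeks, with 3 mice in each of 4 groups. The groups were EuMyc Max KO (the Myc transgene with conditional Max knockout), EuMyc (the transgene with Max WT), Max KO (knockout without the transgene) and WT (Max WT without the transgene). EuMyc mice carry Myc under the immunoglobulin heavy chain enhancer, which acts in B lineage cells, and the title of the series calls these cells premalignant. MAX is the partner that MYC needs to bind DNA. The Cre driver is not given in the sources used here. Between 14973332 and 21671601 reads per library fell in genes. Levels below are CPM, counts scaled to a common library size, and CPM per kb of exon where genes are set beside each other.

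The labels were first set against the data. None of the 10 B lineage markers was at 0 in any library, which at this depth is a weak check. Their sum was lowest in EuMyc, at 4999 to 5901 CPM against 11792 to 12968 CPM in WT. Myc averaged 522 ± 39.5 CPM in EuMyc Max KO, 1010.4 ± 37.1 in EuMyc, 126 ± 8.37 in Max KO and 106 ± 9.37 in WT (SD, n = 3 each). Max was counted in all 12 libraries, and a count per gene does not separate transcripts that lack a deleted exon. It lay at 102 to 108 CPM in EuMyc Max KO against 126 to 130 CPM in EuMyc, and at 99.8 to 102 CPM in Max KO against 108 to 139 CPM in WT. The 3 EuMyc Max KO libraries stood apart from each other: the counts of replicates 1 and 3 gave a chi-square of 65.6 per degree of freedom and those of replicates 2 and 3 one of 30.5, against 7.46 to 15.01 for pairs within the other groups and for EuMyc Max KO replicates 1 and 2. Results that rest on EuMyc Max KO are therefore given one library at a time, and with and without replicate 3 where that changed a call.

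Cdkn1b, p27, was lower in EuMyc than in WT cells and higher again in EuMyc Max KO than in EuMyc. The gene lies on chromosome 6 (mm10, 134920401 to 134925513, plus strand, protein coding). Its level was 135, 120 and 96.7 CPM in EuMyc Max KO replicates 1, 2 and 3, 101, 93.6 and 85.8 CPM in EuMyc, 110.1, 116 and 107 CPM in Max KO, and 124, 139 and 128 CPM in WT. All EuMyc libraries lay below all Max KO and all WT libraries, while the EuMyc Max KO libraries spanned from within the EuMyc range to within the WT range. In order of group means WT came first, then EuMyc Max KO, Max KO and EuMyc, and only Max KO and EuMyc among these neighbours did not overlap. Cdkn1b fell in EuMyc cells relative to WT by 0.48 on the log2 scale (SE 0.104, edgeR quasi-likelihood test, Benjamini-Hochberg adjusted p = 0.00116), which is 0.718 of the WT level. It was higher in EuMyc Max KO than in EuMyc by 0.33 (SE 0.104; adjusted p = 0.0125, same edgeR test). That call was lost without EuMyc replicate 3 (adjusted p = 0.0537, edgeR) or EuMyc Max KO replicate 1 (0.0554). In Max KO against WT the log2 difference was -0.23 (SE 0.104; adjusted p = 0.155, edgeR), and the libraries of the 2 groups did not overlap. It passed without EuMyc Max KO replicate 3 (adjusted p = 0.0365, edgeR) and with only these 2 groups fitted (0.0329). EuMyc Max KO minus Max KO was 0.08, with a 95% interval of -0.15 to 0.31. The 2 differences for Max loss, with and without the transgene, had opposite signs, and the interaction was 0.56 (SE 0.147; adjusted p = 0.00625, edgeR).

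The 250 bases upstream of the RefSeq starts (GRCm38.p6) of 3 of the genes are printed because these genes stand for the 3 patterns described, a fall of Cdkn1b and rises of Cdkn2c and Cdkn3 in EuMyc cells. The table matched 5 of the 6 genes by symbol, with 2 starts for Cdkn2c, of which the first is shown. Capitals mark matches on either strand to the CCAAT box (CCAAT, read as ATTGG on the other strand) or to the cell cycle homology region CHR (TTTGAA, or TTCAAA), an element known from promoters of G2 and mitosis genes.
Cdkn1b (chr6:134920151-134920400, plus strand): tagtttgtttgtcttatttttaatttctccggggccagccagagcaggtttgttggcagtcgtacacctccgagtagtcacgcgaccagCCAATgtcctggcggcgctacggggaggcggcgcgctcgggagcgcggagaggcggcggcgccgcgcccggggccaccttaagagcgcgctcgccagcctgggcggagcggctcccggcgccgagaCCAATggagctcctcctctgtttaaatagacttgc
Cdkn2c (chr4:109666757-109667006, minus strand): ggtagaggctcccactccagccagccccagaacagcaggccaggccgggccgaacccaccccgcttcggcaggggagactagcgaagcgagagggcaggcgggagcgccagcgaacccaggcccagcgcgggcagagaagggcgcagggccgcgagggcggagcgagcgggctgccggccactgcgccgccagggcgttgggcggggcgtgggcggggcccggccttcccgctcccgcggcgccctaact
Cdkn3 (chr14:46760291-46760540, plus strand): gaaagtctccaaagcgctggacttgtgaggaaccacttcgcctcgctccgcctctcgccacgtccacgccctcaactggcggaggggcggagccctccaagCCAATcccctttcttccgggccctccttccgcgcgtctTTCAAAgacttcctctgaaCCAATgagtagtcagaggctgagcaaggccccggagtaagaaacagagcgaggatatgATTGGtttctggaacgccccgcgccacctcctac
Cdkn3 held 3 CCAAT boxes, at 149, 92 and 34 bases before the start, and 1 CHR at 111 bases. Of all 32851 mouse promoter windows of that length, 2.79% held 3 or more CCAAT boxes and 0.381% held these together with a CHR. These combinations are the ones that Cdkn3 itself holds, so their shares are a description and no test of this promoter. Cdkn1b held 2 CCAAT boxes, at 161 and 35 bases, and neither start of Cdkn2c any of the motifs searched. Cdkn2d held 1 CCAAT box, at 220 bases, and Cdkn2b 1 CHR, at 161 bases. The E-box CACGTG, the core to which MYC and MAX bind, matched in none of the 6 windows of the 5 genes and in 6.02% of all windows. The E2F motif GGCGGGAA (1.86% of all windows) and the FOXO motif GTAAACA (3.17%) matched in none either. Each motif was searched as these exact letters only. Other forms of a site were not covered, so a window without a match may still hold a site. CCAAT occurred in 33.8% and TTTGAA in 16.0% of all windows. These matches describe letters only.

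Cdkn1c, p57, an imprinted inhibitor read from the maternal allele, had most of its reads in EuMyc libraries (chromosome 7, 143458339 to 143461050, minus strand, protein coding). Its raw counts were 3, 3 and 1 in EuMyc Max KO, 78, 78 and 73 in EuMyc, 1, 2 and 2 in Max KO, and 8, 5 and 4 in WT. As CPM that is 3.77 to 4.15 in EuMyc, against 0.0520 to 0.164 in EuMyc Max KO, 0.0565 to 0.128 in Max KO and 0.238 to 0.458 in WT. No EuMyc library overlapped one of another group. Summed over 3 libraries, EuMyc had 11.9 times the WT level (95% counting interval 7.28 to 20.8), and EuMyc Max KO had 0.0320 of the EuMyc level (0.0127 to 0.0671). Max KO had 0.300 of the WT level (0.0865 to 0.847). These exact intervals cover counting error only. The gene passed the filter on low counts through its EuMyc libraries alone, so that a difference from EuMyc was built into its being tested. Its fitted log2 values of 3.55 (SE 0.349) for EuMyc against WT, -4.89 (SE 0.398) for EuMyc Max KO against EuMyc and -3.22 (SE 0.806) for the interaction are therefore a description, and Cdkn1c is left out of the counts of genes called that are given below for each comparison. EuMyc Max KO against Max KO gave 7 against 5 reads, a ratio of 1.27 (0.348 to 5.08), and Max KO against WT missed the threshold in the fit (adjusted p = 0.0593, edgeR), and passed it without EuMyc Max KO replicate 3 (0.04965). An antisense gene, Gm44732, overlaps Cdkn1c on the other strand and was not analysed here, and the strand setting of the counting is not given in the sources used here.

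**Figure D1:**
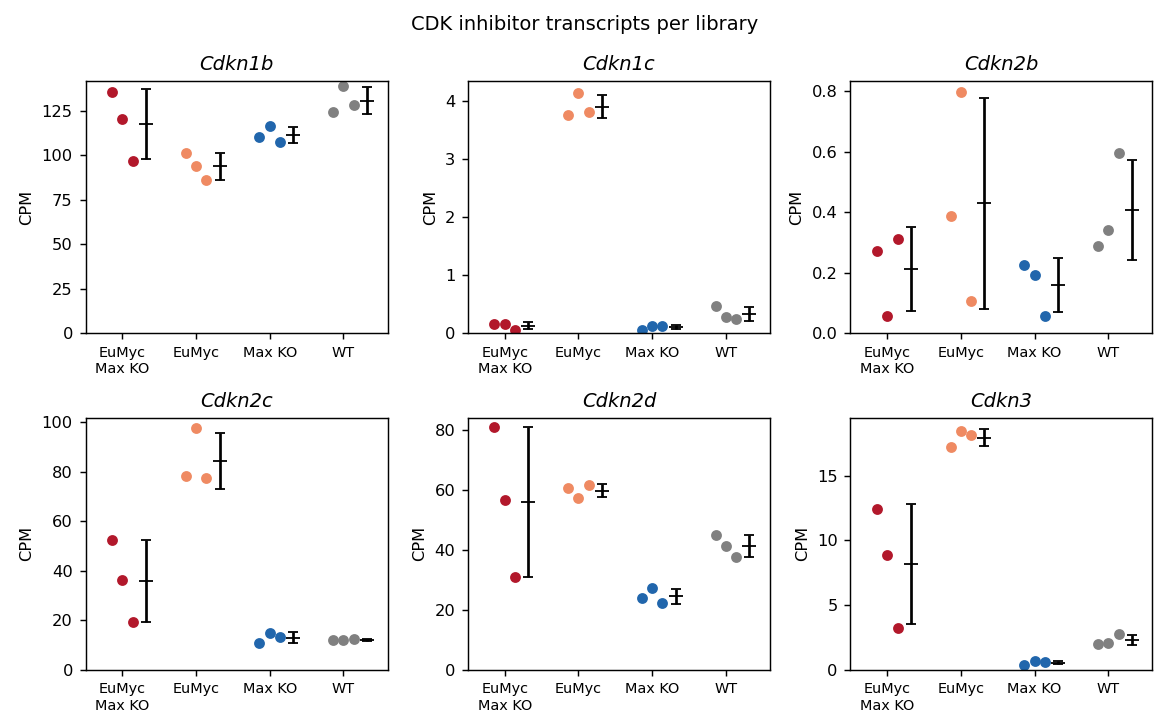
CPM of each of the 6 genes in each of the 12 libraries, with the group mean and SD (n = 3) in black beside the points. Vertical axes start at 0 and differ between genes, and Cdkn1c stands at 3.77 to 4.15 CPM in EuMyc and at most at 0.458 CPM in the other groups, while the EuMyc Max KO libraries are spread out for Cdkn1b, Cdkn2c, Cdkn2d and Cdkn3.

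Among the INK4 genes, Cdkn2b (p15) was close to the limit of detection (chromosome 4, 89306299 to 89311039, minus strand, protein coding). It is the neighbour of Cdkn2a and, as background, a gene that TGF-beta raises and that MYC holds down through MIZ1. Counts were 5, 1 and 6 in EuMyc Max KO, 8, 15 and 2 in EuMyc, 4, 3 and 1 in Max KO, and 5, 6 and 10 in WT. In order of level (EuMyc, WT, EuMyc Max KO, Max KO) each group overlapped the next. Max KO, at 0.0571 to 0.226 CPM, did not overlap WT, at 0.287 to 0.596 CPM. Of all genes tested 38.1% had these 2 groups apart. Summed over the libraries, Max KO had 0.388 of the WT level (95% counting interval 0.149 to 0.913, which covers counting error only). Summed levels were 0.214 CPM in EuMyc Max KO (95% Poisson interval 0.111 to 0.375), 0.426 in EuMyc (0.276 to 0.629), 0.157 in Max KO (0.0679 to 0.310) and 0.405 in WT (0.251 to 0.619). Cdkn2b did not pass the filter and was not tested. With no filter it was called in none of the 5 comparisons, with an adjusted p of 0.290 to 0.983 (edgeR quasi-likelihood, Benjamini-Hochberg) and an unadjusted p under 0.05 in 0 of them.

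Cdkn2c, p18, was highest in EuMyc, intermediate in EuMyc Max KO and low in both groups without the transgene (chromosome 4, 109660876 to 109667189, minus strand, protein coding). It stood at 52.4, 36.2 and 19.2 CPM in EuMyc Max KO replicates 1, 2 and 3, at 78.1, 97.4 and 77.4 CPM in EuMyc, at 10.8, 14.96 and 13.1 CPM in Max KO, and at 11.9, 11.9 and 12.6 CPM in WT. The order was EuMyc, EuMyc Max KO, Max KO and WT, and only the last 2 groups overlapped. Cdkn2c rose 6.96-fold in EuMyc against WT (log2 fold change 2.80, SE 0.307; adjusted p = 1.46e-05, edgeR quasi-likelihood with Benjamini-Hochberg). In EuMyc Max KO it fell by 1.23 relative to EuMyc (SE 0.284; adjusted p = 0.00282, same test), to 0.426 of the EuMyc level. Max loss without the transgene gave 0.09, with a 95% interval of -0.60 to 0.79 and an adjusted p of 0.871 (edgeR). The interaction, -1.32 (SE 0.420), passed with an adjusted p of 0.0219 (edgeR) and was lost without Max KO replicate 2 (0.0519) or EuMyc replicate 2 (0.0511). Cdkn2c was also 2.78-fold higher in EuMyc Max KO than in Max KO (log2 1.48, SE 0.301; adjusted p = 0.0106, edgeR). This difference from Max KO did not pass without Max KO replicate 1 (adjusted p = 0.0501, edgeR), with only these 2 groups fitted (0.0644), or by limma-voom (0.0513).

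Cdkn2d, p19 of the INK4 family and distinct from the ARF protein of the same size name, was spread widely over the EuMyc Max KO libraries (chromosome 9, 21288410 to 21291407, minus strand, protein coding). Levels were 81.0, 56.6 and 30.9 CPM in EuMyc Max KO replicates 1, 2 and 3, 60.5, 57.3 and 61.6 CPM in EuMyc, 24.1, 27.2 and 22.2 CPM in Max KO, and 45.2, 41.3 and 37.6 CPM in WT. Every EuMyc library exceeded every WT library and every Max KO library lay below every WT library, whereas EuMyc Max KO replicate 3 lay below all WT libraries and replicate 1 above all EuMyc ones. Only Max KO did not overlap the group next to it in order of level. In the fit of all 12 libraries the log2 difference was 0.53 for EuMyc against WT (SE 0.266; adjusted p = 0.0964, edgeR) and -0.76 for Max KO against WT (SE 0.273; adjusted p = 0.0910, edgeR), so neither passed. Both passed when only the groups compared were fitted, at 0.50 (adjusted p = 0.000106, edgeR) and -0.74 (adjusted p = 0.000303, edgeR), and when EuMyc Max KO replicate 3 was left out of the fit (adjusted p = 0.00118 and 0.00125, edgeR) or EuMyc Max KO replicate 1 was (0.0220 and 0.0217). EuMyc Max KO against EuMyc gave -0.09, with a 95% interval of -0.68 to 0.50. Cdkn2d was 2.30-fold higher in EuMyc Max KO than in Max KO (log2 1.20, SE 0.273; adjusted p = 0.0174, edgeR), and this was lost with those 2 groups alone (0.0834), by limma-voom (0.0589), and without Max KO replicate 1 (0.0638), Max KO replicate 3 (0.0718) or EuMyc Max KO replicate 2 (0.0524). Its interaction was 0.67 (SE 0.379; adjusted p = 0.161, edgeR) and 0.96 without EuMyc Max KO replicate 3 (adjusted p = 0.000478).

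Cdkn3, the CDK2 phosphatase, was high in transgenic cells and lowest in Max KO (chromosome 14, 46760541 to 46771669, plus strand, protein coding). It was at 12.4, 8.88 and 3.22 CPM in EuMyc Max KO replicates 1, 2 and 3, at 17.2, 18.4 and 18.1 CPM in EuMyc, at 0.395, 0.639 and 0.629 CPM in Max KO, and at 2.01, 2.103 and 2.74 CPM in WT. None of the 4 groups overlapped, in the order EuMyc, EuMyc Max KO, WT and Max KO. Cdkn3 rose 7.84-fold in EuMyc against WT (log2 2.97, SE 0.385; adjusted p = 2.20e-05, edgeR quasi-likelihood with Benjamini-Hochberg) and 14.6-fold in EuMyc Max KO against Max KO (log2 3.87, SE 0.463; adjusted p = 0.000533, same test). It fell by 1.13 in EuMyc Max KO against EuMyc (SE 0.345; adjusted p = 0.0107, edgeR) and by 2.03 in Max KO against WT (SE 0.499; adjusted p = 0.0206, edgeR). The Max KO call rested on 7, 10 and 11 reads against 35, 37 and 46 in WT, and was lost by limma-voom (adjusted p = 0.157) and without WT replicate 1 (0.0538), WT replicate 3 (0.0628), Max KO replicate 1 (0.0870) or Max KO replicate 2 (0.0609). The interaction of 0.90 did not pass (SE 0.611; adjusted p = 0.228, edgeR), and without EuMyc Max KO replicate 3 it was 1.28 (adjusted p = 0.00395).

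**Figure D2:**
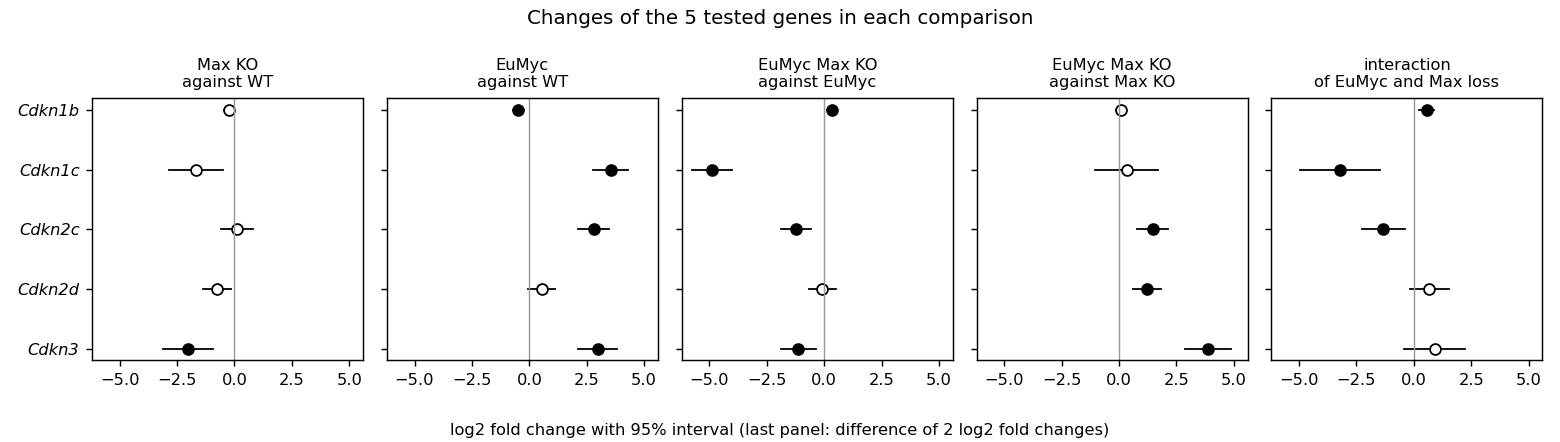
Log2 fold change with its 95% interval for the 5 tested genes in each comparison, filled where the adjusted p was under 0.05 and open where it was not. Cdkn2c and Cdkn3 lie right of 0 in both comparisons of transgenic with non-transgenic cells, and Cdkn1b left of 0 in EuMyc against WT (-0.48).

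Counted over the 4 tested genes other than Cdkn1c, EuMyc against WT gave 2 higher (Cdkn2c and Cdkn3) and 1 lower (Cdkn1b), where 71.6% of all 12878 genes tested were called, 36.7% higher and 34.9% lower. EuMyc Max KO against EuMyc gave 1 higher (Cdkn1b) and 2 lower (Cdkn2c and Cdkn3), with 73.7% of all genes called, 37.6% higher and 36.1% lower. Both shares are near the background, so the number of inhibitors called in these comparisons is no result about them. Max KO against WT gave 1 lower (Cdkn3) and none higher by edgeR's test, with 15.0% of all genes called, 7.27% higher and 7.74% lower, and Cdkn1b and Cdkn2d also had an unadjusted p under 0.05 there. DESeq2 called Cdkn3 and Cdkn2d in that comparison and limma-voom none. EuMyc Max KO against Max KO gave 3 higher (Cdkn2c, Cdkn2d and Cdkn3), against 14.4% of all genes called, 10.7% higher and 3.69% lower. The interaction was called for Cdkn1b and Cdkn2c, against 55.7% of all genes (27.8% higher, 27.9% lower). By overlap of libraries, 3 of these 4 genes had Max KO apart from WT (38.1% of all genes), 4 of 4 EuMyc apart from WT (77.4%), 2 of 4 EuMyc Max KO apart from EuMyc (75.9%) and 3 of 4 EuMyc Max KO apart from Max KO (32.3%). The median log2 fold change of all genes was -0.00, 0.01, 0.03 and -0.00 in the same order. The 2 comparisons with WT share the WT libraries, and the comparisons of EuMyc Max KO share its libraries, so the values are set side by side only.

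Per kb of exon the genes ranked differently than by CPM in EuMyc and EuMyc Max KO, and in the same order in Max KO and WT. In WT cells Cdkn1b and Cdkn2d stood at 28.6 ± 1.67 and 26.3 ± 2.41 CPM per kb (SD, n = 3), and Cdkn2c at 4.51 ± 0.150. In EuMyc cells Cdkn2d stood at 38.0 ± 1.43, Cdkn2c at 31.4 ± 4.22 and Cdkn1b at 20.6 ± 1.71 CPM per kb. Cdkn1b therefore made up 20.6% of the summed length-scaled level of the 6 genes in EuMyc and 47.1% in WT, and Cdkn2c 31.5% and 7.41%. In EuMyc Max KO cells the shares were 32.9% for Cdkn1b, 17.0% for Cdkn2c and 45.4% for Cdkn2d. Max KO cells had 54.1% Cdkn1b and 34.4% Cdkn2d. The sum was 78.5 ± 28.3 CPM per kb in EuMyc Max KO, 99.7 ± 3.63 in EuMyc, 45.2 ± 3.20 in Max KO and 60.8 ± 2.15 in WT (SD, n = 3 each), without a test, as the genes were chosen together. Single EuMyc Max KO libraries summed to 106, 79.7 and 49.7 CPM per kb, from above the highest EuMyc library (104) to below the lowest WT library (58.4). In bulk RNA, fewer cells that carry a transcript and less of it in each cell cannot be told apart.

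**Figure D3:**
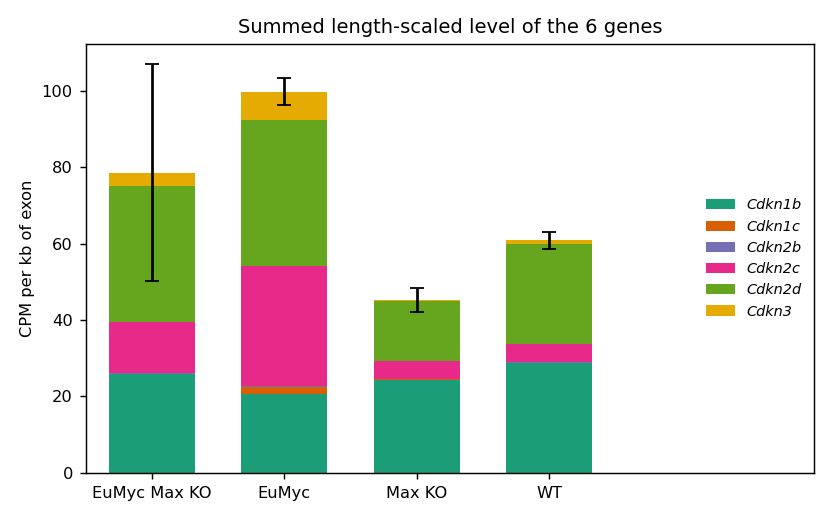
Mean CPM per kb of exon of the 6 genes stacked by group, with the SD of the sum over 3 libraries as the bar at the top. The Cdkn2c segment is 31.4 CPM per kb in EuMyc and 4.51 in WT, and the sum in EuMyc Max KO varies most, with an SD of 28.3.

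The spread among EuMyc Max KO libraries ran the same way in 4 of the genes. Cdkn1b, Cdkn2c, Cdkn2d and Cdkn3 were each highest in replicate 1 and lowest in replicate 3. Relative to the WT mean, Cdkn2c was 4.33-fold in replicate 1, 2.99-fold in replicate 2 and 1.59-fold in replicate 3, and Cdkn3 was 5.45-, 3.89- and 1.41-fold. The summed level of 20 marker genes of G2 and mitosis moved with them, at 3138, 2324 and 1054 CPM in EuMyc Max KO, against 6292 to 7183 CPM in EuMyc, 197 to 253 CPM in Max KO and 467 to 542 CPM in WT. So did the monocyte and macrophage, erythroid and neutrophil marker sums. Other lists outside the B lineage spanned less in EuMyc Max KO. T cell markers were at 170 to 179 CPM, NK cell markers at 37.7 to 52.1, plasmacytoid dendritic cell markers at 892 to 904, and endothelial and stromal markers at 253 to 294. The sum of 11 monocyte and macrophage markers was 7416, 5233 and 3704 CPM in EuMyc Max KO replicates 1, 2 and 3, against 1179 to 1445 CPM in EuMyc, 3527 to 5068 CPM in Max KO and 2169 to 2770 CPM in WT, with no marker at 0 in any library. That of 9 erythroid markers was 2017, 1408 and 429 CPM in EuMyc Max KO, against 131 to 155 CPM in EuMyc, 114 to 349 CPM in Max KO and 56.3 to 215 CPM in WT, with 1 to 3 of them at 0 per library. For 9 neutrophil markers it was 201, 188 and 19.0 CPM in EuMyc Max KO, 7.31 to 12.7 CPM in EuMyc, 11.97 to 115 CPM in Max KO and 4.35 to 12.1 CPM in WT. B lineage markers ran the other way, at 8267, 8928 and 9985 CPM in EuMyc Max KO, against 4999 to 5901 CPM in EuMyc, 10151 to 11184 CPM in Max KO and 11792 to 12968 CPM in WT. The part of these cell types and of the share of dividing cells in the inhibitor levels was not tested.

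**Figure D4:**
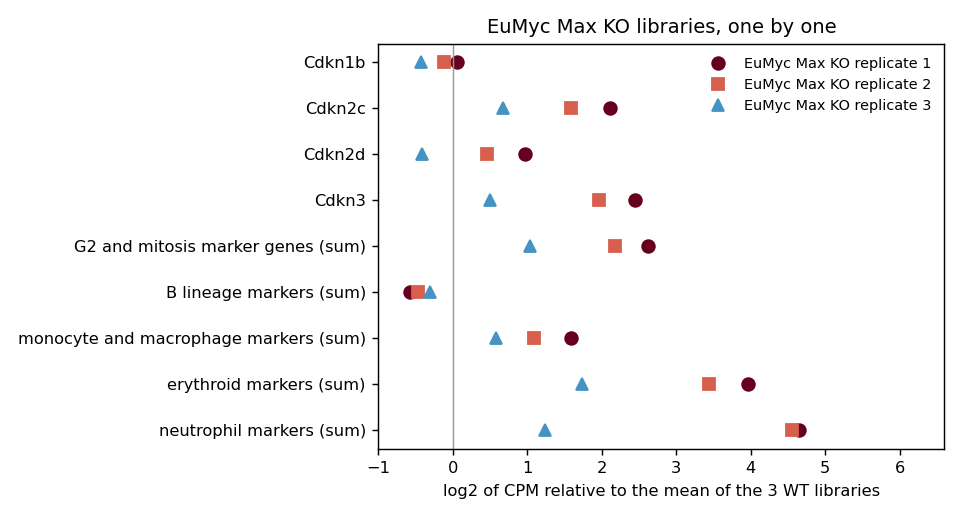
Levels in the 3 EuMyc Max KO libraries as log2 of CPM over the mean of the 3 WT libraries, for 4 inhibitor genes and 5 summed marker lists. Replicate 3 is lowest for each inhibitor gene and for the mitosis, macrophage, erythroid and neutrophil sums, and highest for the B lineage sum.

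The other marker lists are given for completeness. T cell markers summed to 170 to 179 CPM in EuMyc Max KO, 32.7 to 33.0 in EuMyc, 170 to 192 in Max KO and 111 to 132 in WT. NK cell markers summed to 37.7 to 52.1, 3.30 to 7.57, 34.7 to 51.3 and 19.0 to 32.1 CPM in the same groups. Plasmacytoid dendritic cell markers, which B220 sorting also admits, summed to 892 to 904, 267 to 362, 994 to 1263 and 898 to 924 CPM. Ly6d made up most of that sum (means 564, 174, 654 and 543 CPM), while Siglech averaged 46.5, 4.52, 114 and 80.1 CPM. Endothelial and stromal markers summed to 253 to 294, 112 to 135, 329 to 348 and 313 to 341 CPM. Most of this was Pecam1 alone (means 262, 112, 326 and 313 CPM). These sums therefore do not measure the share of the cell types. The sums of these 4 lists were all lowest in EuMyc, and their part in the inhibitor levels was not tested. Plasma cell markers summed to 630 to 1111, 694 to 878, 447 to 540 and 956 to 1672 CPM. Their members went opposite ways in EuMyc against WT, so this sum does not measure plasma cells either. Jchain (log2 fold change -3.13), Prdm1 (-2.28) and Xbp1 (-1.32) were lower there, and Slamf7 (2.52) and Irf4 (0.62) higher. Sdc1 and Tnfrsf17 were not called. Within the B lineage, all 7 tested markers of mature B cells fell in EuMyc against WT, and 8 of 9 tested for earlier stages (pro-B, pre-B) rose. Of all genes 34.9% fell and 36.7% rose there. The mature markers summed to 2965 to 3659, 444 to 637, 4023 to 5166 and 3717 to 4168 CPM, and the pro-B and pre-B markers to 183 to 237, 1127 to 1193, 136 to 168 and 160 to 201 CPM, in the order EuMyc Max KO, EuMyc, Max KO and WT. The part of these stage markers in the inhibitor levels was not tested.

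The kinases and cyclins that the inhibitors bind were mostly higher in EuMyc than in WT cells and lower again in EuMyc Max KO. Of 12 tested genes of this list, 11 rose and 1 fell in EuMyc against WT, with a median log2 fold change of 2.25 beside 0.01 over all genes, of which 36.7% rose and 34.9% fell. In EuMyc Max KO against EuMyc 10 fell and 1 rose (median -1.24), where 36.1% of all genes fell and 37.6% rose. In Max KO against WT 3 fell and 2 rose (median -0.34), where 7.74% of all genes fell and 7.27% rose. Cdk4, the kinase that INK4 proteins hold, averaged 122 ± 3.11 CPM in EuMyc Max KO, 411 ± 28.1 in EuMyc, 93.6 ± 3.20 in Max KO and 114 ± 3.12 in WT. It rose by 1.85 in EuMyc against WT and fell by 1.75 in EuMyc Max KO against EuMyc (SE 0.0589 and 0.0586; adjusted p = 2.05e-10 and 2.91e-10, edgeR). Ccne2, a cyclin E that p27 blocks with CDK2, rose by 3.93 in EuMyc against WT and fell by 1.20 in EuMyc Max KO against EuMyc. Ccnd2, a D cyclin of B cells, went the other way, falling by 1.06 in EuMyc against WT and rising by 2.03 in EuMyc Max KO against EuMyc and by 0.86 in Max KO against WT. EuMyc Max KO against Max KO gave 9 higher and 0 lower in this list, with 10.7% of all genes higher and 3.69% lower.

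**Figure D5:**
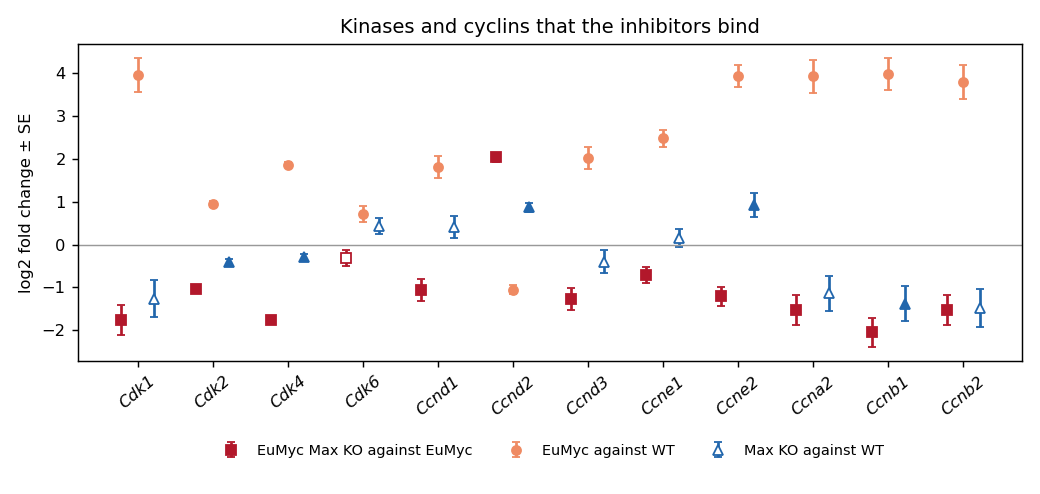
Log2 fold change with SE for the 12 tested kinases and cyclins in 3 comparisons, filled where the adjusted p was under 0.05. In EuMyc against WT, Ccnd2 is the 1 gene below 0 (-1.06), and in EuMyc Max KO against EuMyc it is the 1 gene above 0 (2.03), with Cdk6 open at -0.31.

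Genes of p27 turnover were read next, since the p27 protein is controlled largely by its breakdown, which RNA does not show. In EuMyc against WT 11 of 14 rose and 0 fell (median 0.70), and in EuMyc Max KO against EuMyc 11 fell and 3 rose (median -0.63). The number called was near the share over all genes in the first of these (71.6%), of which 36.7% rose, while in the second 73.7% of all genes were called and 36.1% fell. Cks1b, the cofactor that lets the SKP2 ubiquitin ligase hold p27, averaged 21.2 ± 5.54 CPM in EuMyc Max KO, 110 ± 4.54 in EuMyc, 5.41 ± 0.512 in Max KO and 10.3 ± 0.319 in WT. It rose by 3.42 in EuMyc against WT (SE 0.157; adjusted p = 1.83e-09, edgeR) and fell by 2.37 in EuMyc Max KO against EuMyc (SE 0.148; adjusted p = 2.32e-08, edgeR). Cops5, a subunit of the signalosome that moves p27 out of the nucleus, rose by 1.04 and fell by 1.01 in the same 2 comparisons. Rbx1, the RING subunit of the ligase, rose by 0.50 in EuMyc against WT and fell by 0.71 in EuMyc Max KO against EuMyc. Skp2 itself, named after its values were seen, stood at 22.5 ± 6.66 CPM in EuMyc Max KO, 64.3 ± 5.95 in EuMyc, 12.5 ± 2.51 in Max KO and 11.1 ± 0.671 in WT. The 3 genes that rose in EuMyc Max KO against EuMyc were Cul4a, Rnf123 and Ubac1. Cul4a averaged 128 ± 43.1 CPM in EuMyc Max KO and 84.6 ± 2.29 in EuMyc, Rnf123 205 ± 65.2 and 112 ± 7.02, and Ubac1 132 ± 66.3 and 69.8 ± 2.98. In Max KO against WT 4 of the 14 fell and 0 rose, where 7.74% of all genes fell and 7.27% rose. Cks1b was at -0.92 there (SE 0.168; adjusted p = 0.00463, edgeR). EuMyc Max KO against Max KO gave 6 higher and 0 lower, where 10.7% of all genes were higher and 3.69% lower.

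Transcriptional regulators of the inhibitors were mixed. Of 28 tested, Myc and Max among them, 12 rose and 11 fell in EuMyc against WT, 11 rose and 14 fell in EuMyc Max KO against EuMyc, 2 rose and 3 fell in Max KO against WT, and 9 rose and 3 fell in EuMyc Max KO against Max KO. Over all genes the shares called were 71.6%, 73.7%, 15.0% and 14.4% in the same order. Tgfbr2, a receptor for TGF-beta, which raises Cdkn2b in human epithelial cells, fell by 1.34 in EuMyc against WT and rose by 1.19 in EuMyc Max KO against EuMyc (SE 0.0590 and 0.0588; adjusted p = 1.03e-09 and 2.74e-09, edgeR). Mybl2, a MYB factor of G2 and mitosis genes, rose by 2.96 in EuMyc against WT, fell by 1.47 in EuMyc Max KO against EuMyc and fell by 1.36 in Max KO against WT. Foxo1, a FOXO factor that raises Cdkn1b in other cell types, was named after its values were seen. It fell by 1.07 in EuMyc against WT (SE 0.0965; adjusted p = 4.29e-07, edgeR) and rose by 0.81 in EuMyc Max KO against EuMyc (SE 0.0962; adjusted p = 6.23e-06, edgeR). Foxo3 rose by 1.35 in EuMyc Max KO against EuMyc and was at -0.39 in EuMyc against WT (adjusted p = 0.0519, edgeR).

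All 20 G2 and mitosis marker genes rose in EuMyc against WT (median 3.74) and all 20 fell in EuMyc Max KO against EuMyc (median -1.91), where Cdkn3 gave 2.97 and -1.13 and where 36.7% of all genes rose in the first and 36.1% fell in the second. In Max KO against WT 12 of the 20 fell, with a median of -1.22 and Cdkn3 at -2.03, where 7.74% of all genes fell. In EuMyc Max KO against Max KO all 20 rose, with a median of 2.79, where 10.7% of all genes rose. Bub1, a spindle checkpoint kinase, changed by 3.96 in EuMyc against WT and -2.20 in EuMyc Max KO against EuMyc, Ttk, another, by 4.05 and -2.48, and Bub1b, a checkpoint protein, by 3.97 and -2.62. In the interaction 6 of the 20 were lower and 0 higher, where 27.9% of all genes were lower and 27.8% higher. The number lower is thus near the background. The interaction of Cdkn3 did not pass at 0.90.

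For each tested gene the transcripts of most similar pattern were found among 9720 genes with a mean of at least 5 CPM. The measure is the root mean square difference of log2 CPM over the 12 libraries, each gene centred on its own mean, and the groups themselves shape it. Nearest to Cdkn3 were Cdca3 (0.210), which triggers entry into mitosis, Hmmr (0.253), a spindle protein, and Ckap2l (0.298), another, against a median of 1.84 over all candidates. Cdca3 averaged 63.3 CPM in EuMyc Max KO, 167 in EuMyc, 5.50 in Max KO and 15.4 in WT. Nearest to Cdkn2c were Ube2s (0.225), a ubiquitin enzyme of the anaphase promoting complex, Nsl1 (0.227), of the kinetochore, and Incenp (0.236), of the chromosomal passenger complex, with a median of 1.18 over candidates. Incenp averaged 89.9 CPM in EuMyc Max KO, 279 in EuMyc, 39.3 in Max KO and 44.96 in WT. Cdkn2d lay nearest to Ssbp3 (0.214), Map2k3 (0.230), a kinase upstream of p38, and Hras (0.247), with a median of 0.625. Cdkn1b lay nearest to Prkaa1 (0.0957), the catalytic subunit of the energy sensor AMPK, Trp53inp2 (0.0973), an autophagy protein, and Acbd4 (0.0996), with a median of 0.387. Prkaa1 averaged 62.9 CPM in EuMyc Max KO, 52.8 in EuMyc, 60.8 in Max KO and 67.6 in WT. Cdkn1c lay nearest to Rcor2 (0.388), a corepressor subunit, Sorcs2 (0.433), a sorting receptor, and Rapgefl1 (0.440), with a median of 1.74. Rcor2 averaged 3.24 CPM in EuMyc Max KO, 44.0 in EuMyc, 2.46 in Max KO and 3.03 in WT.

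The inhibitors of the ARF and p53 axis are set beside them for scale. Per kb of exon, Cdkn1a (p21) stood at 0.973 ± 0.198 CPM in EuMyc Max KO, 1.66 ± 0.640 in EuMyc, 0.266 ± 0.0983 in Max KO and 0.292 ± 0.166 in WT, and Cdkn2a at 0.875 ± 0.580, 6.75 ± 1.34, 0.0987 ± 0.0815 and 0.148 ± 0.0969 (SD, n = 3 each). Per kb, both means thus lay below those of Cdkn1b, Cdkn2c and Cdkn2d in each of the 4 groups.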

How the data were processed

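RNA of B220+ spleen cells from 12 mice, 3 per genotype, was sequenced, per the labels. The deposited values are read counts per gene symbol that the authors made, 1 table per mouse. Per the submitters' processing notes the tools were bcl2fastq 1.8.4, TopHat2 2.1.0 and HTSeq 0.6.1 and the build was mm10. The sources used here do not give the annotation or strand setting. Left out of library sizes and tests were 5 summary rows of the counter. Of all reads, 12.5% to 20.3% were outside genes, 20.3% to 27.9% had several alignments and 0.748% to 1.45% were ambiguous.

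Genotype labels gave the groups and sample titles the replicate numbers. Counts were analysed in R 4.3.3 with edgeR 4.0.16 and limma 3.58.1. The filterByExpr step left 12878 of 24421 genes, TMM scaled the libraries, and 1 robust quasi-likelihood model over all 12 libraries (8 residual degrees of freedom) was tested for 5 contrasts. Calls needed an adjusted p (Benjamini-Hochberg over every gene tested) under 0.05. SE is the log2 fold change divided by the root of F. An exact permutation test of 3 against 3 cannot go below p = 0.1. CPM per kb uses the union of exons in GENCODE vM21, which also gave coordinates. Values are relative within a library and do not show RNA per cell.

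The genes and lists were chosen with earlier results of these data known. All 6 genes are named. Each list gives the 2 genes with the smallest p in EuMyc against WT and then the one with the smallest p in Max KO against WT, named here for the kinase, turnover, regulator and mitosis lists. Alternatives were RLE, upper-quartile or no further scaling, no filter or at least 1 CPM in 3 libraries, DESeq2 1.42.0, limma-voom, fits of only the groups compared, a replicate block, and leaving out each library. The model was tested on simulated data. There 66 or 67 genes were changed at each fold size in 1 group, and each gene had the same spread in all groups. In the data 71.6% of genes were called in EuMyc against WT, and EuMyc Max KO libraries were more spread. The rates may therefore not hold for these comparisons. The model recovered 26.9% (interaction) to 65.7% (EuMyc against WT) of 1.5-fold changes. Of 4-fold changes it recovered 84.8% (interaction) to 95.5% (EuMyc Max KO against EuMyc). False calls were 14 of 165 in EuMyc against WT and 7 of 149 in EuMyc Max KO against EuMyc. Changes below 1.5-fold were not simulated. No 2 libraries of a group were identical or within sampling noise of each other (chi-square per degree of freedom 7.46 to 65.6).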

Additional observations from a re-analysis of the deposited data

Results flagged for a closer look

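For Cdkn1b and Cdkn2c the effect of Max loss differed between cells with and without the Myc transgene, by the interaction term of edgeR's quasi-likelihood model, adjusted over all genes. For Cdkn1b the difference was 0.56 on the log2 scale (adjusted p = 0.00625, edgeR), with 0.33 in EuMyc Max KO against EuMyc and -0.23 in Max KO against WT. For Cdkn2c it was -1.32 (adjusted p = 0.0219, edgeR), with -1.23 and 0.09. Among all genes tested 55.7% had a called interaction. Cdkn1c also passed, at -3.22, with -4.89 and -1.67, but it entered the tests through its EuMyc libraries alone, so a difference was built in, and it had 1 to 8 reads per library in the other 3 groups.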

How the results depend on the processing

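Values are log2 fold changes, and counts of genes called are over all 5 tested genes, Cdkn1c among them. As its difference from EuMyc was built in by the filter, these counts only track the processing. In Max KO against WT Cdkn1c entered such a count only without EuMyc Max KO replicate 3. The main fit called 15.0% of all genes in Max KO against WT and 14.4% in EuMyc Max KO against Max KO. No called change reversed its sign under any alternative. RLE, upper-quartile and total scaling, no filter, and at least 1 CPM in 3 libraries changed no call of the 5 tested genes. Upper-quartile scaling moved the median of all genes to -0.115 in EuMyc against WT and to 0.116 in EuMyc Max KO against EuMyc, and total scaling moved the second to 0.148. With them Cdkn1b stood at -0.60 (upper quartile) and -0.58 (totals) in EuMyc against WT and at 0.41 and 0.45 in EuMyc Max KO against EuMyc. The interaction median moved to 0.113 and 0.105. Total scaling made 61.1% of calls in Max KO against WT higher, against 48.4% by TMM, and upper-quartile scaling 63.6% in EuMyc Max KO against Max KO, against 74.4%. With only the groups compared, Cdkn1b (-0.22) and Cdkn2d (-0.74) were called in Max KO against WT, 3 genes in all, and Cdkn2d (0.50) in EuMyc against WT, while Cdkn2c (1.48) and Cdkn2d (1.20) lost their calls in EuMyc Max KO against Max KO, leaving 1, and 851 of all genes were called there against 1853. DESeq2 called Cdkn2d in Max KO against WT (-0.78, 2 genes in all) and EuMyc against WT (0.52). By limma-voom the calls of Cdkn3 in Max KO against WT (-2.01, leaving 0) and of Cdkn2c (1.37) and Cdkn2d (1.09) in EuMyc Max KO against Max KO (leaving 1) were lost. Leaving out 1 library at a time gave, for Max KO against WT, -0.26 to -0.18 for Cdkn1b, -1.86 to -1.35 for Cdkn1c, -0.84 to -0.69 for Cdkn2d, -2.16 to -1.84 for Cdkn3 and 0 to 4 genes called, with 808 to 2563 called of all genes. For EuMyc against WT it gave 0.47 to 0.60 for Cdkn2d, and for EuMyc Max KO against EuMyc 0.21 to 0.45 for Cdkn1b. For EuMyc Max KO against Max KO it gave 1.10 to 1.78 for Cdkn2c, 0.84 to 1.49 for Cdkn2d and 1 to 3 genes called, with 1057 to 2846 of all genes. For the interaction it gave -1.70 to -1.02 for Cdkn2c, 0.31 to 0.96 for Cdkn2d, 0.47 to 1.28 for Cdkn3 and 2 to 5 genes called. Cdkn1c was among those called in every such fit, and 55.7% of all genes had a called interaction in the main fit. Apart from fits of fewer samples, the causes were not tested. Replicate numbers were not taken to pair the libraries, since the labels do not say so and only 4 of 18 same-numbered pairs correlated over 0.1 (range -0.117 to 0.344). As a hint of pairing from the data, 8 of 12 libraries correlated best with one of their own number. With the replicate block no call of the 5 genes changed (Cdkn2c in EuMyc Max KO against EuMyc was -1.27), and 1738 genes were called in Max KO against WT, against 1933 without it. At these depths Cdkn2b, and Cdkn1c outside EuMyc, lie at 1 to 15 reads per library, and small changes in them were not detectable.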
